A study of Homo sapiens with 11 samples.

Results

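Aurora A and B, PLK1, NEK2, TTK and BUB1 are protein kinases of mitosis, MAD2L1 and CDC20 are the checkpoint inhibitor and its target, and CDC25C is the phosphatase that switches on CDK1. Their transcripts were followed on 11 Affymetrix arrays of MV4-11, an established human acute myeloid leukaemia line. A list of 10 symbols was used (AURKA, AURKB, PLK1, NEK2, TTK, BUB1, BUB1B, MAD2L1, CDC20 and CDC25C), and a gene was taken where the array annotation gave a transcript cluster (the probes summarised for 1 locus) that symbol alone. This found 9 of the 10 genes, each with 1 cluster, among 22109 genes with such a cluster. All 9 were among the 12147 genes whose highest level reached 3.80 on the log2 scale and which were therefore tested. BUB1B, the checkpoint pseudokinase BubR1, is listed only on a cluster shared with PAK6, and its reading is given once below and not counted.

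The kinases act in sequence as a cell divides. CDC25C removes the inhibitory phosphates from CDK1 with cyclin B, PLK1 and Aurora A drive centrosome maturation and spindle assembly, NEK2 separates the centrosomes, and Aurora B corrects faulty attachments of chromosomes to the spindle. TTK (also called MPS1) and BUB1 sit at unattached kinetochores, where they help load MAD2L1 (MAD2), which holds back CDC20, the activator of the anaphase-promoting complex, until every chromosome is attached. Most of these transcripts are made late in each cell cycle, so that in a growing population their level follows how many cells are in G2 and mitosis.

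The study compared knockdown of the RUNX transcription factors with alkylating PIP conjugates, compounds that bind DNA. There was 1 array per condition. Of the 8 knockdown arrays, 1 carried shRNAs against RUNX1, RUNX2 and RUNX3 together (shRx1+shRx2+shRx3), 3 carried pairs (shRx1+shRx3, shRx1+shRx2 and shRx2+shRx3), 3 carried 1 each (shRx1, shRx2 and shRx3), and 1 carried the luciferase control shRNA (shLuc). All 8 cultures, the control included, were transduced and then kept for 24 hours with 3 µM doxycycline. In the other arm, cells received Chb-M' at 1 µM, Chb-50 at 1 µM or DMSO for 6 hours, and the labels name neither a vector nor doxycycline for them. The labels do not say whether arrays came from separate cultures or days, and the p-values below therefore rest on array-to-array spread that may be technical. Without replicates that spread also holds any joint action of shRNAs for which a fit has no term. RNA came from whole cultures, in which fewer dividing cells and less RNA per dividing cell cannot be told apart.

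The labels were checked first. RUNX2 read 5.56 to 5.82 on the 4 arrays with its shRNA, against 6.00 to 6.30 on the 4 knockdown arrays without. RUNX3 read 7.65 to 7.87 with its shRNA and 7.70 to 8.37 without, where the low reading of 7.70 came from the array labelled shRx1. RUNX1 is listed only on a cluster shared with LOC100506403, which read 3.96 to 4.26 on the arrays with the RUNX1 shRNA and 4.20 to 4.45 on those without. The groups thus overlapped for RUNX3 and for the RUNX1 cluster. The blood cell genes PTPRC, FLT3, LYZ, MPO and CD4 passed the level filter, while the T cell genes CD3D and CD3E, the B cell gene MS4A1, the epithelial genes EPCAM and KRT19 and the fibroblast genes COL1A1 and COL1A2 stayed under it on every array.

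Promoter sequence is shown because the 9 transcripts had similar profiles across the arrays. RefSeq windows on GRCh38.p14, from 250 bases before to 50 bases after a transcription start, were given for 7 of the 9 genes, with 11 windows in all; AURKA and TTK had none. A CCAAT box, bound by NF-Y, and the cell cycle genes homology region TTTGAA or TTCGAA, through which the DREAM and MuvB complexes act, are the known elements of late cell cycle promoters. CCAAT stood in a window of all 7 genes, against 39.72% of the 27305 genes in the table, and in 9 of the 11 windows, against 34.61% of all 35116. TTTGAA or TTCGAA stood in a window of 5 of the 7 genes, against 19.54% of all genes, and in 6 of the 11 windows, against 16.35%. The window counts are not independent, since windows of CDC25C and of AURKB overlap and hold some of the same sites. Of the RUNX letters, TGTGGT stood in 0 of the 7 genes against 15.62% of all genes, and TGCGGT in 1, BUB1, against 8.67%. Every motif was searched on both strands, and a match or its absence describes only these letters in these windows. The stretches below run from 130 bases before to 30 bases after the start, in the direction of transcription, and are shown because they place the elements relative to the start. Capitals mark CCAAT or its complement ATTGG, and TTTGAA or TTCGAA.
PLK1, chr16:23678759-23678918, plus strand: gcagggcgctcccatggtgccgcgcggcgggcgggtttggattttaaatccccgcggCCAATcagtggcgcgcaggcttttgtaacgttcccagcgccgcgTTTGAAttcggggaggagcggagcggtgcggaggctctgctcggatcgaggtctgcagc
NEK2, chr1:211675592-211675751, minus strand: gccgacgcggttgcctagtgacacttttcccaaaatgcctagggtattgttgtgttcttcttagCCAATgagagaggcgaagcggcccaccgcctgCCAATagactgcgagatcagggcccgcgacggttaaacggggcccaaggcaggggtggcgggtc
BUB1, chr2:110678034-110678193, minus strand: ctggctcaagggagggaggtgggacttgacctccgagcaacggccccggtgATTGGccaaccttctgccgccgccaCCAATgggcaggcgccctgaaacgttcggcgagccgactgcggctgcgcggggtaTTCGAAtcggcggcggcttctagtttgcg
MAD2L1, chr4:120066819-120066978, minus strand: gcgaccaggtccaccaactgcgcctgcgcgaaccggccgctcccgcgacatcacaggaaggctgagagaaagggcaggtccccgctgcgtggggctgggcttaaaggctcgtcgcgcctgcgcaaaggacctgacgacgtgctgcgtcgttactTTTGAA
CDC20, chr1:43358851-43359010, plus strand: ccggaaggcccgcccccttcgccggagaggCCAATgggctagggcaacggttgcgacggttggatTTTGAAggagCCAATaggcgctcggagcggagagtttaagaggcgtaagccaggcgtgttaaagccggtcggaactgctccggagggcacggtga
CDC25C, chr5:138331775-138331934, minus strand: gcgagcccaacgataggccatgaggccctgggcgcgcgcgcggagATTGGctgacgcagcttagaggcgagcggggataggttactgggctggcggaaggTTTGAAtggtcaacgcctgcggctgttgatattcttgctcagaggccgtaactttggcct
In PLK1 the TTTGAA began 29 bases before the start with a CCAAT 73 bases before it, and in this CDC25C window, 1 of 4 for that gene, the distances were 30 and 85 bases. Of the other CDC25C windows, 1 had TTTGAA 44 bases after its start and the rest held neither element. CDC20 had TTTGAA 65 bases before the start, between CCAAT boxes at 100 and 55 bases. NEK2 had a pair of CCAAT boxes 66 and 34 bases before the start and no TTTGAA or TTCGAA in its window. MAD2L1 carried TTTGAA 25 bases after the start, and its CCAAT match, an ATTGG, lay outside the stretch at 229 bases before it. AURKB, which is not printed, had ATTGG 153 and 129 bases before the starts of its windows and no TTTGAA or TTCGAA.

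The kinases of the spindle and centrosome come first. PLK1, the Polo-like kinase, read 9.33 on shRx1+shRx3, 9.51 on shRx1+shRx2+shRx3, 9.79 on shRx1+shRx2, 10.20 on shRx2+shRx3, 10.29 on shRx1, 10.17 on shRx2 and 10.32 on shRx3, against 10.23 on shLuc. It read 9.26 with Chb-M' and 9.48 with Chb-50, against 10.14 with DMSO. PLK1 was therefore low on the arrays that joined the RUNX1 shRNA to another, lowest where the other was against RUNX3, and low with both compounds, while on shRx1 alone it was level with shLuc. AURKB, the kinase of the chromosomal passenger complex, read 7.95 on shRx1+shRx3, 8.06 on shRx1+shRx2+shRx3, 8.40 on shRx1+shRx2, 8.86 on shRx2+shRx3, 8.78 on shRx1, 8.77 on shRx2 and 8.87 on shRx3, against 8.86 on shLuc. With Chb-M' it read 8.44 and with Chb-50 8.70, against 8.75 with DMSO. The Chb-50 value of AURKB thus lay beside that of DMSO. AURKA, the spindle pole kinase, read 5.61 on shRx1+shRx3, 5.94 on shRx1+shRx2+shRx3, 6.07 on shRx1+shRx2, 6.45 on shRx2+shRx3, 6.52 on shRx1, 6.31 on shRx2 and 6.62 on shRx3, against 6.49 on shLuc. AURKA read 5.67 with Chb-M' and 5.66 with Chb-50, against 6.19 with DMSO. Its compound readings lay just above that on shRx1+shRx3. NEK2, the centrosome kinase, read 5.53 on shRx1+shRx3, 5.61 on shRx1+shRx2+shRx3, 5.98 on shRx1+shRx2, 6.28 on shRx2+shRx3, 6.42 on shRx1, 6.35 on shRx2 and 6.21 on shRx3, against 6.60 on shLuc. NEK2 read 6.38 with Chb-M' and 6.26 with Chb-50, against 6.71 with DMSO. It differed from PLK1 and the Aurora kinases in that all 7 arrays with a RUNX shRNA lay below shLuc.

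The checkpoint genes had a like order. TTK read 7.10 on shRx1+shRx3, 7.30 on shRx1+shRx2+shRx3, 7.62 on shRx1+shRx2, 7.91 on shRx2+shRx3, 7.85 on shRx1, 7.92 on shRx2 and 7.79 on shRx3, against 8.07 on shLuc. It read 7.21 with Chb-M' and 7.31 with Chb-50, against 7.96 with DMSO. For TTK both compound readings lay close to those of the arrays that carried the RUNX1 and RUNX3 shRNAs together. BUB1 read 8.63 on shRx1+shRx3, 8.58 on shRx1+shRx2+shRx3, 9.00 on shRx1+shRx2, 9.23 on shRx2+shRx3, 9.36 on shRx1, 9.18 on shRx2 and 9.24 on shRx3, against 9.44 on shLuc, and 8.77 with Chb-M' and 8.74 with Chb-50, against 9.35 with DMSO. BUB1 was 1 of 2 genes, CDC25C being the other, that were lower on shRx1+shRx2+shRx3 than on shRx1+shRx3. MAD2L1 read 6.42 on shRx1+shRx3, 6.81 on shRx1+shRx2+shRx3, 7.01 on shRx1+shRx2, 7.49 on shRx2+shRx3, 7.27 on shRx1, 7.23 on shRx2 and 7.46 on shRx3, against 7.39 on shLuc. MAD2L1 read 7.26 with Chb-M' and 7.05 with Chb-50, against 7.22 with DMSO, so that the compound arrays lay on either side of DMSO. The cluster that BUB1B shares with PAK6 read 6.06 on shRx1+shRx3 and 6.33 on shRx1+shRx2+shRx3, against 6.92 on shLuc, and 6.53 with Chb-M' and 6.58 with Chb-50, against 6.97 with DMSO.

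The effectors completed the set. CDC20 read 8.06 on shRx1+shRx3, 8.20 on shRx1+shRx2+shRx3, 8.49 on shRx1+shRx2, 8.94 on shRx2+shRx3, 8.81 on shRx1, 8.70 on shRx2 and 8.86 on shRx3, against 8.89 on shLuc, and 8.43 with Chb-M' and 8.59 with Chb-50, against 8.96 with DMSO. CDC25C read 5.70 on shRx1+shRx3, 5.62 on shRx1+shRx2+shRx3, 5.61 on shRx1+shRx2, 6.10 on shRx2+shRx3, 6.34 on shRx1, 6.17 on shRx2 and 6.38 on shRx3, against 6.58 on shLuc. It read 5.76 with Chb-M' and 5.93 with Chb-50, against 6.19 with DMSO. CDC25C stood apart in that its lowest reading was on shRx1+shRx2, which carries no RUNX3 shRNA.

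**Figure D1:**
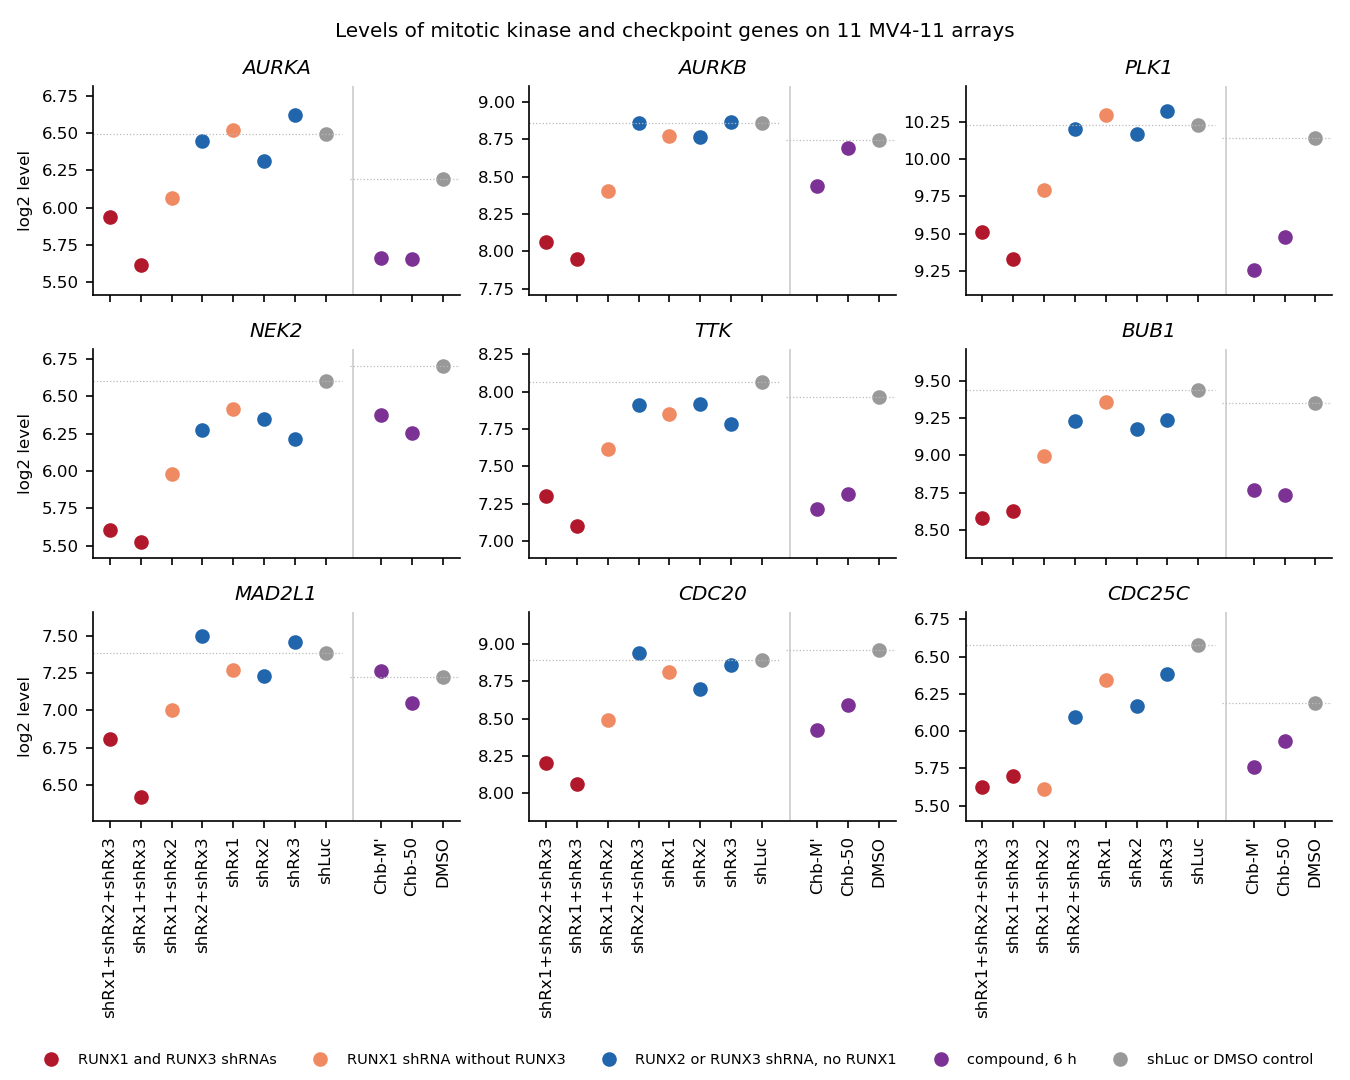
Log2 level of each of the 9 genes on each of the 11 arrays, 1 point per array, in the knockdown arm and the compound arm. The shRx1+shRx3 and shRx1+shRx2+shRx3 arrays hold the lowest knockdown levels of every gene except CDC25C, for which shRx1+shRx2 at 5.61 is lowest.

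Both arrays with the RUNX1 and RUNX3 shRNAs lay below all 6 other knockdown arrays for 8 of the 9 genes, CDC25C being the exception. Among all tested genes 13.3% lay lower in this way. Between the 4 arrays with the RUNX1 shRNA and the 4 without, 0 of the 9 genes had groups that did not overlap in the lower direction (4.73% of all genes). The array that overlapped was shRx1, whose RUNX1 level could not be checked on a cluster of its own and whose RUNX3 reading was the low one given above.

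The joint effect of the RUNX1 and RUNX3 shRNAs was taken from a limma fit on the 8 knockdown arrays with terms for the 3 shRNAs and for RUNX1 and RUNX3 together. In it 7 of the 9 genes fell at an adjusted p under 0.05, against 4.63% of all tested genes that fell and 3.53% that rose. NEK2 fell to 53.3% of its level without these shRNAs (log2 effect -0.91, SE 0.14, adjusted p = 0.0215), AURKB to 57.1% (-0.81, SE 0.12, adjusted p = 0.0199) and TTK to 57.7% (-0.79, SE 0.12, adjusted p = 0.0215). PLK1 fell to 58.3% (-0.78, adjusted p = 0.0365), CDC25C to 61.2% (-0.71, adjusted p = 0.044), BUB1 to 61.4% (-0.70, adjusted p = 0.0208) and CDC20 to 63.1% (-0.66, adjusted p = 0.0339). MAD2L1, at -0.70 (SE 0.16, adjusted p = 0.0511), and AURKA, at -0.63 (SE 0.18, adjusted p = 0.0881), did not pass. The effects were close to each other, with a median of -0.71 against 0.02 over all tested genes, an SD over the 9 genes of 0.09, and 95% intervals of single genes that spanned -1.25 to -0.56 for NEK2 and -1.05 to -0.20 for AURKA. The calls rest on few arrays: without the shLuc, shRx2 or shRx1+shRx3 array 0 of the 9 genes passed in limma, without shRx3 or shRx2+shRx3 2 passed, without shRx1+shRx2+shRx3 4, and without shRx1 or shRx1+shRx2 8. Over both directions limma called 991 of all 12147 tested genes with every knockdown array kept. It called 335 without shRx3 or shRx2+shRx3, and 1132 without shRx1 or shRx1+shRx2. The estimates of the 9 genes do not move, by construction, when shRx1, shRx3, shRx1+shRx2 or shRx2+shRx3 is left out. All 9 stayed negative without each of the other 4 arrays. With a trended robust eBayes MAD2L1 (adjusted p = 0.0193) and AURKA (adjusted p = 0.045) passed as well, and MAD2L1 passed also with a stricter level filter, after quantile normalization and with all pairwise interaction terms. Other genes lost their call in some of the 7 alternatives that kept all arrays. PLK1 (adjusted p up to 0.0663) and CDC25C (up to 0.0782) passed in 5 of the 7, and CDC20 (up to 0.0638) in 6.

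Set against the single shLuc array, the shRx1+shRx3 array gave differences of -1.08 (NEK2) to -0.81 (BUB1), with a median of -0.90. All 9 genes were at least 1.5-fold lower there, against 4.96% of all tested genes, and NEK2 alone was at least 2-fold lower, against 1.49%. On shRx1+shRx2+shRx3 the differences ran from -0.99 (NEK2) to -0.55 (AURKA) with a median of -0.77, and 7 of the 9 genes were at least 1.5-fold lower, against 4.27%. None of the 9 was 2-fold lower there (0.873% of all genes). On shRx1+shRx2 the median was -0.44, with CDC25C at -0.96 and NEK2 at -0.62 the 2 genes at least 1.5-fold lower (1.6% of all genes). On the shRx1, shRx2, shRx3 and shRx2+shRx3 arrays no gene of the 9 was 1.5-fold lower than on shLuc, where 1.23%, 0.675%, 0.856% and 0.766% of all genes were. These differences share 1 control array and have no replicates.

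Taken as an additive effect over the 4 arrays with and the 4 without it, the RUNX1 shRNA gave estimates from -0.54 (AURKB) to -0.38 (BUB1), with a median of -0.48. AURKB averaged 8.30 ± 0.37 with the RUNX1 shRNA and 8.84 ± 0.05 without (SD, n = 4 arrays each), and PLK1 averaged 9.73 ± 0.42 with it and 10.23 ± 0.07 without. The spread was larger among the arrays with the shRNA in all 9 genes. This additive fit has no RUNX1 by RUNX3 term, so its residual spread also holds any departure from additivity and can widen its errors. In it limma called 0 of the 9 genes, and none of all tested genes (0%), with adjusted p from 0.0977 for CDC25C to 0.205 for AURKA. At an unadjusted p under 0.05 all 9 were lower, against 10% of all genes. Without the shRx1 array 8 of the 9 passed, as did 817 of all 12147 tested genes over both directions.

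Paired arrays show where the RUNX1 shRNA difference lay. Adding it to nothing (shRx1 minus shLuc) gave a median of -0.08 over the 9 genes, from -0.24 in CDC25C to 0.06 in PLK1. Added to the RUNX2 shRNA it gave a median of -0.30, with CDC25C lowest at -0.55. Added to the RUNX3 shRNA it gave a median of -0.80, from -1.04 in MAD2L1 to -0.61 in BUB1, and added to both others a median of -0.67, from -0.80 in AURKB to -0.47 in CDC25C. The RUNX1 shRNA difference was thus more negative on the arrays that also carried the RUNX3 shRNA by the mean of the pairs in all 9 genes, against 46.7% of all genes. In CDC25C the gap was small, with -0.68 and -0.47 in the pairs with the RUNX3 shRNA and -0.24 and -0.55 in those without. The interaction term that tests this ran from -0.69 (MAD2L1) to -0.18 (CDC25C) with a median of -0.62 against 0.02 over all genes. Limma called 0 of the 9 interactions and 0% of all genes, with adjusted p from 0.293 to 0.758. At an unadjusted p under 0.05, 6 of the 9 passed (AURKA, AURKB, PLK1, BUB1, MAD2L1 and CDC20), against 6.61% of all genes in that direction.

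**Figure D2:**
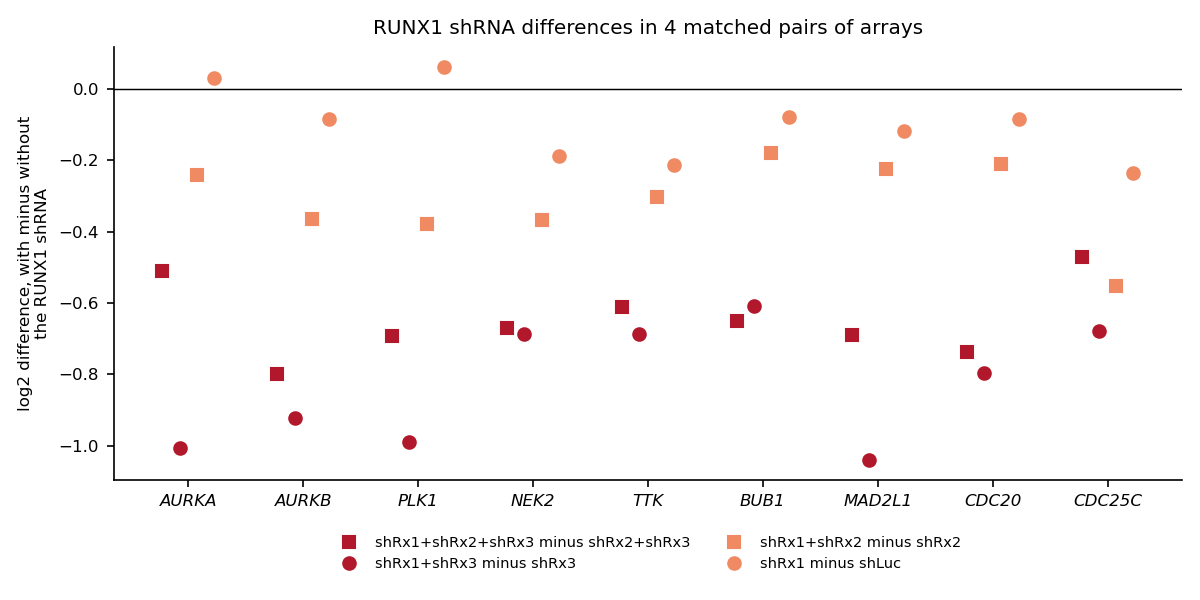
Log2 difference made by adding the RUNX1 shRNA to each of the 4 backgrounds, 1 point per gene and background. The median over the 9 genes is -0.08 on the shLuc background, -0.30 with the RUNX2 shRNA, -0.80 with the RUNX3 shRNA and -0.67 with both.

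The RUNX3 shRNA had an additive estimate, over all arrays with and without it, from -0.43 (NEK2) to -0.18 (MAD2L1), with a median of -0.27. Limma called 0 of the 9 (0% of all genes), and 3 passed at an unadjusted p under 0.05, NEK2 at -0.43, TTK at -0.34 and BUB1 at -0.32 (4.82% of all genes in that direction). Its pairs were uneven. On top of the RUNX1 shRNA alone the RUNX3 shRNA gave a median of -0.83, from -0.96 in PLK1 to -0.64 in CDC25C. Added to RUNX1 and RUNX2 shRNAs together it gave a median of -0.29, from -0.42 in BUB1 to 0.01 in CDC25C. On top of the RUNX2 shRNA alone the median was 0.05. On its own (shRx3 minus shLuc) the RUNX3 shRNA gave a median of -0.03, from -0.39 in NEK2 to 0.12 in AURKA. The centrosome kinase NEK2 and the checkpoint kinase TTK read lower on shRx3 than on shLuc, with differences of -0.39 and -0.28, whereas the difference of PLK1 was 0.09.

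The additive estimates of the RUNX2 shRNA had a median of -0.12. CDC25C, at -0.37 (SE 0.11, adjusted p = 0.965), was the only 1 of the 9 with an unadjusted p under 0.05 (1.84% of all genes in that direction), and limma called 0 of the 9 and 0% of all genes. Added to the RUNX1 shRNA, the RUNX2 shRNA gave a median of -0.37, from -0.73 in CDC25C to -0.24 in TTK. Added to the RUNX1 and RUNX3 shRNAs it gave a median of 0.14, from -0.08 in CDC25C to 0.39 in MAD2L1. AURKA showed the widest contrast between these 2 pairs, at -0.46 on the shRx1 background and 0.33 on the shRx1+shRx3 background.

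The compounds were read against 1 DMSO array. The log2 difference between Chb-M' and DMSO was -0.89 in PLK1 (54.1% of the DMSO level) and -0.75 in TTK (59.5%), and these were the 2 genes at least 1.5-fold lower, against 3.21% of all tested genes. BUB1 differed by -0.58, CDC20 by -0.53, AURKA by -0.53, CDC25C by -0.42, NEK2 by -0.33 and AURKB by -0.31, while MAD2L1 differed by 0.04. The median was -0.53 against 0.02 over all genes. A limma fit on all 11 arrays, with additive shRNA terms, lent the spread of the knockdown arrays to the unreplicated compound arrays. That spread also holds any departure of the shRNAs from additivity. For Chb-M' the fit called 0 of the 9 genes at an adjusted p under 0.05, against 0.477% of all genes lower. Its 3 genes with an unadjusted p under 0.05 were PLK1 (95% interval -1.66 to -0.11, adjusted p = 0.295), TTK (-1.27 to -0.22, adjusted p = 0.202) and BUB1 (-1.14 to -0.02, adjusted p = 0.339), against 7.59% of all genes in that direction.

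With Chb-50 the median was -0.45, and PLK1 at -0.67, TTK at -0.65 and BUB1 at -0.62 were at least 1.5-fold lower than with DMSO, against 1.98% of all genes. AURKA differed by -0.53, NEK2 by -0.45, CDC20 by -0.37, CDC25C by -0.25, MAD2L1 by -0.17 and AURKB by -0.05. The same fit called 0 of the 9 genes and 0% of all genes, and TTK (95% interval -1.17 to -0.13, adjusted p = 0.441) and BUB1 (-1.17 to -0.06, adjusted p = 0.497) had an unadjusted p under 0.05, against 5.24% of all genes in that direction. No gene of the 9 was 2-fold lower with either compound, where 0.56% of all genes were with Chb-M' and 0.156% with Chb-50.

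Chb-M' and Chb-50 were given at the same dose for the same time, which allows 1 pair of compounds to be compared. The differences, Chb-M' minus Chb-50, ran from -0.26 in AURKB to 0.21 in MAD2L1, with 5 genes lower with Chb-M' and 4 higher. Limma called 0 of the 9 genes and 0% of all genes, 0 of the 9 had an unadjusted p under 0.05 (3.33% of all genes lower and 3.82% higher), and adjusted p lay between 0.97 and 1. The 95% intervals were wide, from -0.94 to 0.42 in AURKB, -0.99 to 0.55 in PLK1, -0.62 to 0.42 in TTK, -0.52 to 0.60 in BUB1 and -0.57 to 0.99 in MAD2L1. Each interval was wider than the estimate it surrounds, and the data do not show that the compounds act alike on these genes.

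**Figure D3:**
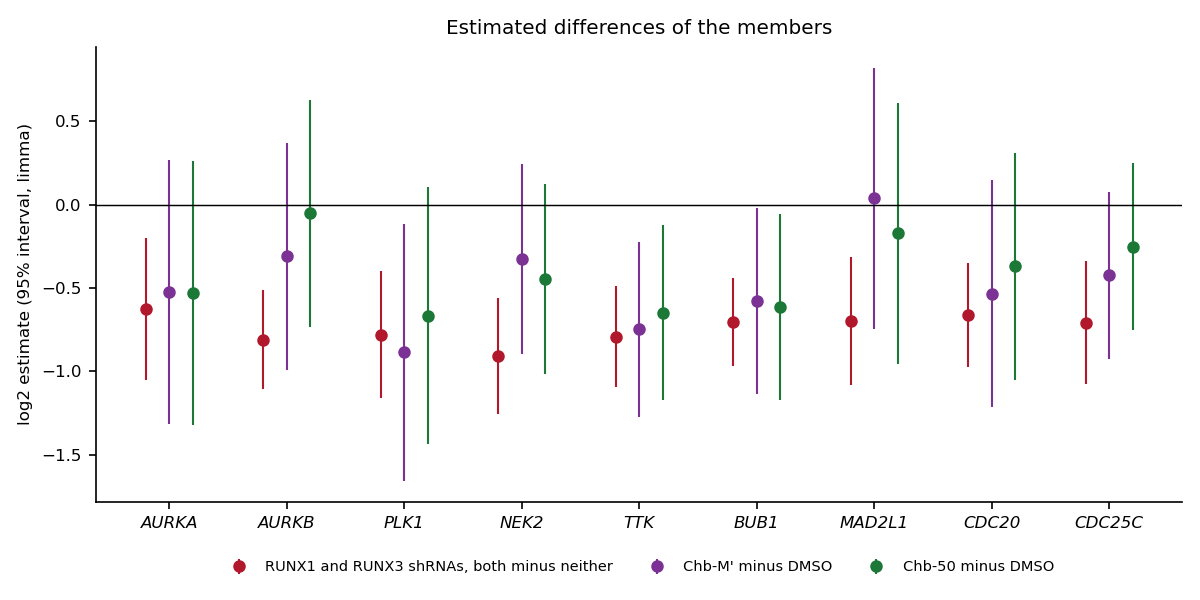
Log2 estimates with 95% intervals for the 9 genes, for the joint RUNX1 and RUNX3 shRNA effect, for Chb-M' against DMSO and for Chb-50 against DMSO. The joint effects lie together around a median of -0.71, and the compound estimates are spread more widely, from -0.89 for PLK1 to 0.04 for MAD2L1 with Chb-M'.

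The 9 joint effects were closer to each other than the compound effects, which rest on single arrays. The SD over the 9 genes was 0.09 for the joint effect, 0.27 for Chb-M' and 0.22 for Chb-50. For single knockdown arrays against shLuc it ran from 0.08 (shRx1+shRx3) to 0.19 (shRx2+shRx3), with 0.15 for shRx1+shRx2+shRx3. The differences between the joint effect and each compound effect were tested in 1 fit on all 11 arrays, a comparison chosen after the data were seen. For Chb-M' the difference was largest in MAD2L1, at -0.73 (95% interval -1.40 to -0.07, adjusted p = 0.193), followed by NEK2 at -0.58 and AURKB at -0.50. PLK1, at 0.11, was the only gene with a lower estimate under Chb-M'. Against Chb-50 the largest difference was AURKB, at -0.76 (95% interval -1.27 to -0.24, adjusted p = 0.149), and TTK (-0.14) and BUB1 (-0.09) had small differences. Limma called 0 of the 9 in either comparison, against 1.36% of all genes lower than with Chb-M' and 0% lower than with Chb-50, and 1 of the 9 had an unadjusted p under 0.05 in each (10.5% and 8.76% of all genes in that direction). The arms differ in time, in doxycycline and in transduction, so a difference between agents cannot be told apart from these. The control arrays themselves differed by -0.10 (NEK2) to 0.39 (CDC25C), shLuc minus DMSO. Limma instead set the shLuc level fitted from all 8 knockdown arrays against DMSO, with estimates from -0.06 (NEK2) to 0.43 (AURKA). It called 0 of the 9 in that comparison (0.346% of all genes lower and 0.132% higher). At an unadjusted p under 0.05 there were 0 (9.9% of all genes lower and 9.29% higher).

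FOXM1 and CDKN1A were read beside the set. FOXM1, a transcription factor that activates late cell cycle genes, read 6.47 on shRx1+shRx3 and 6.76 on shRx1+shRx2+shRx3, against 8.07 on shLuc, and its joint effect was -1.41 (SE 0.18, adjusted p = 0.0143). With Chb-M' FOXM1 read 7.62 and with Chb-50 7.44, against 7.63 with DMSO. FOXM1 was therefore low on the knockdown arrays where the 9 genes were low, but level with DMSO on the Chb-M' array, where PLK1 and TTK were low, and the difference between its joint and Chb-M' effects was -1.40 (adjusted p = 0.0754). CDKN1A, the CDK inhibitor p21, read 7.36 with Chb-M' and 7.14 with Chb-50, against 5.91 with DMSO, and rose with Chb-M' (1.44, SE 0.21, adjusted p = 0.047). With Chb-50 its estimate was 1.23 (adjusted p = 0.189), and the joint shRNA effect was -0.40 (SE 0.13, adjusted p = 0.119). The joint and Chb-M' effects on CDKN1A differed by -1.84 (adjusted p = 0.0304). Both CDKN1A calls ended without the shLuc array, when 0 of all tested genes passed in either comparison. The part of FOXM1 or CDKN1A in the levels of the 9 genes was not tested.

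Partners of the 9 genes were taken from 7 lists of 81 genes, of which 77 were tested, and 30 of these fell and 1 rose in the joint shRNA effect, beside the 4.63% and 3.53% of all genes given above. In the mitotic entry switch 8 of 11 fell, among them CDC25A (-1.06, adjusted p = 0.0214), CDK1 (-1.03, adjusted p = 0.0282) and its cyclin CCNB1 (-0.93, adjusted p = 0.0417), and the list had a median of -0.93. At the kinetochore, the chromosome's attachment site, 6 of 9 fell, with SPC25 at -1.26 (adjusted p = 0.0337) and ZWINT at -1.07 (adjusted p = 0.0101), and all 9 estimates were negative. Of the passenger complex and the Aurora and PLK1 partners 6 of 9 fell, including TPX2, the Aurora A activator (-1.07, adjusted p = 0.0241), CDCA8 (-0.87, adjusted p = 0.0466) and SGO2 (-0.53, adjusted p = 0.0293). Of the other checkpoint proteins 2 of 10 fell, KNTC1 (-0.78, adjusted p = 0.0107) and ZWILCH (-0.66, adjusted p = 0.025), subunits of the RZZ complex. The remaining subunit, ZW10, was at -0.27 (adjusted p = 0.129), while TRIP13, the ATPase that remodels MAD2, was at -0.88 (adjusted p = 0.089), TPR at -0.05 and MAD1L1 at 0.08. The highest estimates of the other lists were ENSA at 0.19 and ARPP19 at -0.28 in the entry switch, MIS12 at -0.49 (adjusted p = 0.0691) and NSL1 at -0.67 (adjusted p = 0.0163) at the kinetochore, and CEP192 at -0.12 (adjusted p = 0.369) beside SGO2. ZWILCH and ZW10, and CCNB1 under this effect, were named after their values were seen.

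Of the 20 genes for the anaphase-promoting complex and its partners, 3 fell, with a list median of -0.17. The gene with the lowest estimate was UBE2C, its ubiquitin-conjugating enzyme (-0.94, adjusted p = 0.0116), followed by UBE2S at -0.88 (adjusted p = 0.0505), which did not pass. Also past the test were FBXO5 (-0.84, adjusted p = 0.0101) and the subunit ANAPC11 (-0.65, adjusted p = 0.0107). The highest estimates were those of the subunits ANAPC7 and ANAPC16, at 0.09 and 0.30 (adjusted p = 0.55 and 0.0775). Of 10 other Aurora, Polo and NEK family kinases 1 fell, PLK4, the kinase of centriole duplication (-1.05, adjusted p = 0.0101), and 1 rose, NEK3 (0.41, adjusted p = 0.0433), around a median of 0.03, with PLK2 at -0.27 and NEK9 at 0.22 not past the test. Of the 8 genes for transcription of G2 and mitosis genes 4 fell, with FOXM1 lowest, TFDP1 at -1.09 (adjusted p = 0.0217) and MYBL2 at -1.02 (adjusted p = 0.017), while E2F4 stood at -0.13 and LIN37 at 0.39 (adjusted p = 0.279). MYBL2, FBXO5 and ANAPC11 were named here after their values were seen. Without the shLuc or the shRx1+shRx3 array limma called 0 of all tested genes for the joint effect, FOXM1 and these partners included.

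Under the compounds limma called 0 of the 77 partners in either direction, with 5 lower and 2 higher at an unadjusted p under 0.05 for Chb-M' (7.59% and 6.31% of all genes) and 3 lower and 1 higher for Chb-50 (5.24% and 3.94%). Negative estimates were 48 of 77 for Chb-M' and 49 of 77 for Chb-50, where 44.9% and 49.5% of all genes were negative. The list medians lay between -0.35 and 0.02 for Chb-M' and between -0.22 and 0.02 for Chb-50, and the passenger complex and kinase partners were the 1 list with all 9 estimates negative for both compounds. The lowest estimates for both compounds were CCNB1 (-0.91 for Chb-M' and -0.85 for Chb-50) and NDC80 (-0.81 and -0.80), a kinetochore subunit. The highest was the stress-responsive kinase PLK2, at 1.37 with Chb-M' (adjusted p = 0.0791) and 1.17 with Chb-50. Entry and kinetochore genes that fell in the joint shRNA effect did not all lie low with Chb-M': CDC25A stood at 0.51, ZWINT at 0.32 and DSN1 at 0.40, none past the test.

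The lowest and highest genes of each list are given for the compounds, where none passed the test. Among the checkpoint proteins SPDL1 stood at -0.37 with Chb-M' and -0.47 with Chb-50, KNTC1 at -0.40 with Chb-M', ZWILCH at -0.19 with Chb-50, MAD2L2 at 0.05 with Chb-M' and 0.09 with Chb-50, ZW10 at 0.07 with Chb-M' and MAD1L1 at 0.18 with Chb-50. At the kinetochore NUF2 stood at -0.72 with Chb-M' and -0.52 with Chb-50, ZWINT at 0.23 with Chb-50 and MIS12 at 0.14 with Chb-50. Of the passenger complex and partners CDCA8 was at -0.55, TPX2 at -0.55, INCENP at -0.30 and HASPIN at -0.08 with Chb-M', and BORA at -0.53, CDCA8 at -0.48, CEP192 at -0.15 and BIRC5 at -0.13 with Chb-50. In the anaphase-promoting complex list ESPL1, the separase, was lowest with both compounds, at -0.55 with Chb-M' and -0.57 with Chb-50, and UBE2C stood at -0.39 with Chb-M' and -0.38 with Chb-50, while ANAPC13 (0.37) and FBXO5 (0.21) were highest with Chb-M' and ANAPC15 (0.17) and ANAPC2 (0.14) with Chb-50. CCNB2, a mitotic cyclin, stood at -0.65 with Chb-M' and -0.58 with Chb-50, MASTL at 0.35 with Chb-M' and 0.14 with Chb-50, and PKMYT1 at 0.26 with Chb-50. Of the other kinases NEK7 was at -0.32 with Chb-M' and -0.19 with Chb-50, NEK3 at -0.26 with Chb-M', AURKC at -0.17 with Chb-50, and PLK3 at 0.49 with Chb-M' and 0.29 with Chb-50. Of the transcription list, LIN52, a MuvB subunit, stood at -0.35 with Chb-M' and -0.52 with Chb-50, LIN54 at -0.29 with Chb-M', MYBL2 at 0.23 with Chb-M' and 0.20 with Chb-50, and E2F4 at 0.06 with Chb-M' and 0.18 with Chb-50.

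**Figure D4:**
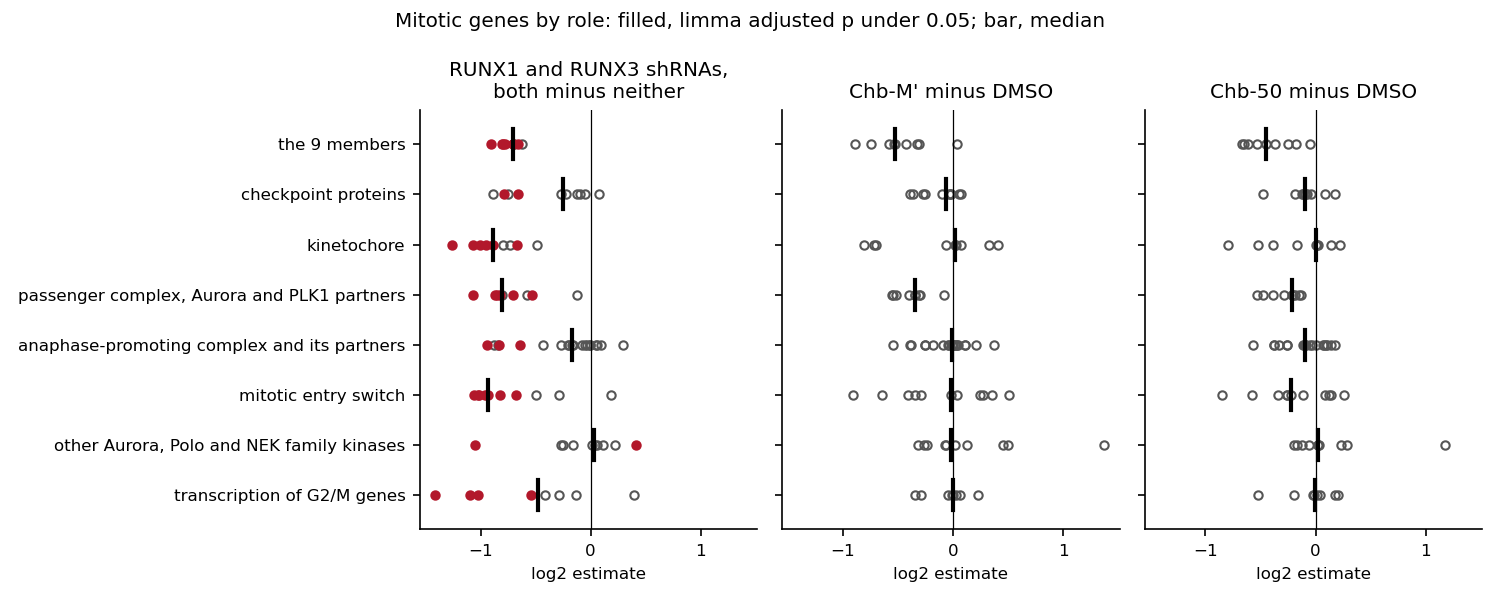
Log2 estimate of each partner gene by role list for the joint RUNX1 and RUNX3 shRNA effect, Chb-M' against DMSO and Chb-50 against DMSO. The entry switch and kinetochore genes lie lowest in the joint effect, with list medians of -0.93 and -0.89, while the list medians of the compounds lie between -0.35 and 0.02.

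The likeness of the 9 profiles was measured as the root mean square log2 difference over the 11 arrays after each gene was centred on its own mean. CDC20 (0.083) and BUB1 (0.090) lay nearest to the mean of the other 8, and NEK2 (0.227), AURKA (0.185) and PLK1 (0.179) farthest, where the median over all tested genes was 0.341. Genes outside the set were measured against the mean of all 9, and 93 of them lay closer than 0.15. In the set CDC25C (0.156), MAD2L1 (0.168), PLK1, AURKA and NEK2 did not, so the likeness was not particular to these 9 genes. Outside the set, the nearest profiles were those of KNSTRN (0.052), which encodes a kinetochore protein, OIP5 (0.076), a centromere loading factor, H1-2 (0.078), a linker histone, NCAPG (0.083), a condensin subunit, ECT2 (0.084), an exchange factor of cytokinesis, and ARHGEF39 (0.084). The arrays share one normalization and 1 array per condition, so this order describes these arrays only. The mean centred profile of the set was lowest on shRx1+shRx3 (-0.55) and shRx1+shRx2+shRx3 (-0.41), then on Chb-M' (-0.24), Chb-50 (-0.18) and shRx1+shRx2 (-0.15), and it lay between 0.16 and 0.36 on the other 6 arrays.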

How the data were processed

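RNA of 11 MV4-11 cultures, 1 per condition, was measured on Affymetrix arrays. The authors deposited log2 values for 53617 transcript clusters, made with RMA, Transcriptome Analysis Console 1.0 and Affymetrix Expression Console 1.3.1, per the submitters' processing notes, which state no order. The annotation's build was not given in the sources used here, and signal over background is unknown. Array medians over the tested genes lay between 5.86 and 5.91. Groups follow the labels.

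Clusters with 1 symbol (23558) were used, and 2155 with several were not. For the 618 genes with more clusters the one with the highest mean was taken. Genes reaching the median of 3.80 on some array were tested (12147). Limma 3.58.1 in R 4.3.3 fitted the 3 shRNAs as additive terms on the 8 knockdown arrays (4 residual and 3.19 prior degrees of freedom), then with a RUNX1 by RUNX3 term (3 and 3.1). The joint effect is the sum of the RUNX1, RUNX3 and interaction terms. Compounds were fitted on all 11 arrays with additive shRNA terms, where the lone arrays are assumed to vary like the knockdown arrays. The RUNX1 by RUNX3 term was added there for the differences from the joint effect. P-values were adjusted over all tested genes (Benjamini-Hochberg) and called under 0.05. The code was tested on simulated data. The 9 genes, the 7 partner lists and the tests were chosen with earlier results of these data known. Named were the 9 genes, RUNX1, RUNX2, RUNX3, FOXM1 and CDKN1A, the 2 lowest and 2 highest genes of each list per comparison, and the 6 nearest profiles. Alternatives were no filter and a stricter filter, quantile and median normalization, the mean of clusters, a trended robust eBayes, further interaction terms and leaving out each of the 8 knockdown arrays in turn. The DMSO and compound arrays were not left out. Promoter letters are RefSeq's on GRCh38.p14, where 22271 clusters were found by gene identifier.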

Additional observations from a re-analysis of the deposited data

Results flagged for a closer look

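Pairs of arrays pointed in opposite directions in 8 cases, each a difference between groups of 2 pairs that was noted because every pair of one group was above 0 and every pair of the other below it. In 4 genes the difference made by the RUNX2 shRNA was above 0 in both pairs with the RUNX3 shRNA and below 0 in both pairs without it: NEK2 (0.06 and 0.08 with, -0.25 and -0.43 without), TTK (0.13 and 0.20 with, -0.15 and -0.24 without), MAD2L1 (0.04 and 0.39 with, -0.16 and -0.26 without) and CDC20 (0.08 and 0.14 with, -0.19 and -0.32 without). The means with and without differed by 0.42 in NEK2, 0.36 in TTK, 0.42 in MAD2L1 and 0.37 in CDC20, and this difference was not tested. Among all tested genes 7.335% had opposite pairs in that direction.

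In 4 genes the RUNX3 shRNA difference was below 0 in both pairs with the RUNX1 shRNA and above 0 in both pairs without it. These were AURKA (-0.91 and -0.13 with, 0.12 and 0.14 without), AURKB (-0.83 and -0.34 with, 0.01 and 0.09 without), PLK1 (-0.96 and -0.28 with, 0.09 and 0.03 without) and MAD2L1 (-0.85 and -0.20 with, 0.07 and 0.26 without). The means differed by -0.65 in AURKA, -0.64 in AURKB, -0.68 in PLK1 and -0.69 in MAD2L1, values equal to the interaction term, which limma did not call in these genes (adjusted p from 0.293 to 0.37). Among all tested genes 6.94% had opposite pairs in that direction. The large negative pair came from shRx1+shRx3 and shRx1 in all 4 genes.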

How the results depend on the processing

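All 9 genes kept a negative joint effect and RUNX1 shRNA effect under the 15 alternatives run for each. For the compounds, estimates can move only under quantile or median normalization, since the other alternatives, leaving out a knockdown array included, leave them as they are by construction. Under both normalizations the 9 genes kept their sign against DMSO. The number of genes called for the joint effect was 7, and it was 4 to 9 under other settings, with 4 without a level filter and 9 with a trended robust eBayes, and 0 to 8 with 1 array left out. On shRx1+shRx2+shRx3 against shLuc, 0 genes were 2-fold and 7 were 1.5-fold lower. For the RUNX1 shRNA it was 0, but 4 with all pairwise interaction terms and 0 to 8 with 1 array left out, the 8 coming without shRx1.

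Reversals were small. The RUNX2 estimate of MAD2L1 was -0.018 with median-centred arrays, and AURKA between the compounds was -0.023 after quantile and -0.014 after median normalization. The fitted estimate of CDC20 between shLuc and DMSO, 0.029, was -0.012 after quantile normalization and -0.126 with a RUNX1 by RUNX3 term. The shLuc and DMSO arrays themselves differed by -0.07 in CDC20. With 1 array left out, RUNX2 estimates spanned -0.313 to 0.045 in AURKA, -0.22 to 0.061 in AURKB, -0.288 to 0.052 in PLK1, -0.117 to 0.089 in TTK, -0.181 to 0.155 in MAD2L1, -0.203 to 0.067 in CDC20 and -0.239 to 0.052 for the median. RUNX3 estimates of MAD2L1 spanned -0.305 to 0.004, the interaction of CDC25C -0.415 to 0.053, and shLuc against DMSO -0.187 to 0.017 in NEK2 and -0.11 to 0.137 in CDC20. The joint effect minus the Chb-M' effect spanned -0.398 to 0.198 in AURKA, -0.094 to 0.31 in PLK1, -0.187 to 0.099 in TTK and -0.272 to 0.012 in CDC20, and minus the Chb-50 effect -0.391 to 0.205 in AURKA and -0.314 to 0.09 in PLK1.

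Counts over all genes moved more. The joint effect called 991 genes, and 484 without a filter, 1523 with a trended robust eBayes and 544 with all pairwise terms. The RUNX1 shRNA called 0, and 65 with the trended eBayes and 391 with pairwise terms. Chb-M' called 74, and 7 without a filter and 49 with the mean of clusters. The comparison of shLuc with DMSO called 58, and between 37 and 216 otherwise. The joint effect minus the Chb-M' effect called 365, against 0 without a filter and 800 with the trended eBayes, and minus the Chb-50 effect 0, against 109 with the stricter filter and 340 with the trended eBayes. With 1 array left out, 0 to 817 genes were called for the RUNX1 shRNA, 0 to 1132 for the joint effect and 0 to 77 for Chb-M'. The cause of these shifts was not tested. Arrays could not be paired by culture or day, because every label carries the same replicate number. The pairs described above were matched by their shRNAs only. With 1 array per condition, the number of arrays limits the precision of every value.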
